A study of Mus musculus with 6 samples.

Results

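The genes described here are 9 transcription factors of the paraxial mesoderm, the tissue beside the neural tube from which the somites form: Tbx6, Msgn1, Mesp1, Mesp2, Tcf15, Meox1, Meox2, Tbx18 and Uncx. They were chosen by name, as every probe set that the platform annotation gives to 1 of these symbols, and matched 11 of 45101 probe sets, with 2 each for Meox2 and Tbx18. RNA had been profiled on Affymetrix arrays in ICR mouse embryos of the 3 to 4 somite stage (8.5 dpc, days post coitum), when blood does not yet circulate. The 6 arrays made up 3 groups of 2: cells labelled Flk1 positive, Flk1 KO embryos, which lack the VEGF receptor encoded by Kdr, and wild-type (WT) embryos. Embryo samples were the embryo proper. Flk1+/GFP embryos appear in the design text, while the label of the cells gives no genotype beyond Flk1 positive, so a genotype difference between the cells and WT embryos cannot be told apart from the group. How the cells were selected, which allele the knockout carries and whether animals were pooled are not given in the sources used here. No label states that replicate arrays stem from separate animals, so the p-values of limma measure the spread between these samples alone, and that spread may be technical.

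Paraxial mesoderm is laid down at the tail end of the embryo as the presomitic mesoderm, which is cut into somites one pair after another under an oscillator of Notch, Wnt and FGF signals. Tbx6 and Msgn1 act in the presomitic mesoderm, Mesp2 sets the segment border, and Mesp1 marks newly formed mesoderm, including the forebears of the heart. Tcf15 (paraxis), Meox1 and Meox2 act in the formed somite, where Tbx18 marks the anterior and Uncx the posterior part of each segment. Endothelium and blood, the tissues for which Kdr is best known, come from other mesoderm, and endothelium in part also from the somites.

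Promoter sequences were available for 7 of the 9 genes in RefSeq (build GRCm38.p6), and those of Tbx6, Msgn1 and Mesp1 are shown because Tbx6 and Msgn1 are the presomitic factors that fell in Flk1-positive cells and Mesp1 is a presomitic stage factor that did not pass the test. Each is the 250 bases before the annotated start, read 5′ to 3′ on the gene's strand. Capitals mark a match to a Tcf/Lef core (CTTTGAT, or ATCAAAG on the other strand), a T-box half-site (AGGTGTGA, or TCACACCT) or a TATA box (TATAAA, or TTTATA).
Tbx6, chr7:126781233-126781482, plus strand: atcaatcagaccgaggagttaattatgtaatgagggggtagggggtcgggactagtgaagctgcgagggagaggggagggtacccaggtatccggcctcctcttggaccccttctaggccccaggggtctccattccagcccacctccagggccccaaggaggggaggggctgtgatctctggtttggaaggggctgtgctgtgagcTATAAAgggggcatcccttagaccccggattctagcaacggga
Msgn1, chr12:11208949-11209198, minus strand: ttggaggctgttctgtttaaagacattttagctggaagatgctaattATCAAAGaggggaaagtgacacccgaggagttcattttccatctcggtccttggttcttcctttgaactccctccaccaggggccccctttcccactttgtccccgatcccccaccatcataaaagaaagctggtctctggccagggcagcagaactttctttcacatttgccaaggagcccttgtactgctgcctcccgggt
Mesp1, chr7:79793591-79793840, minus strand: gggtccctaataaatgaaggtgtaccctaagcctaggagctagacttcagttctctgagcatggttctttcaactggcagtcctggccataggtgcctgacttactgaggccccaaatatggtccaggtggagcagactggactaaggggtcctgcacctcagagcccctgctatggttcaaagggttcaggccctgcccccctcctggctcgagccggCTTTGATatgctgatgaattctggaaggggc
The Tcf/Lef core holds letters read by the factors that carry Wnt signals to genes. The spelling searched began 203 bases before the start of Msgn1 and 31 bases before that of Mesp1. That spelling stood in 2 of the 7 promoters and in 3.21% of all 32851 promoters of this length. Other spellings of the core were not searched. The TATA box stood in 2 of the 7, those of Tbx6 and Meox2, and in 12.4% of all promoters. None of the 7 held the T-box half-site, which 1.12% of all promoters did. These are matches of letters, chosen for search after the array values were known, and the arrays do not test them.

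Array quality bears on the comparisons in a few ways. Pearson correlations over the 33820 probe sets tested were 0.980 to 0.985 within groups. They were 0.977 to 0.983 between Flk1 KO and WT arrays and 0.899 to 0.917 between cell and embryo arrays. The Kdr signal was 3309 and 3328 in Flk1-positive cells, 29.5 and 63.8 in Flk1 KO embryos, and 544 and 546 in WT embryos, which follows the labels. All 8 endothelial markers checked (among them Pecam1, Cdh5 and Tie1) rose in Flk1-positive cells against WT embryos, and their summed signal was 38016 and 38070 in Flk1-positive cells, 896 and 877 in Flk1 KO embryos, and 2811 and 2707 in WT embryos. The 5 primitive erythroid markers rose in the cells as well and summed to 38156 and 39892 in Flk1-positive cells, 329 and 242 in Flk1 KO embryos, and 860 and 547 in WT embryos. Of all genes tested, 12.5% were called higher in the cells than in WT embryos. Hbb-bh1 was the largest part in the cells and WT embryos, with 28584 and 29097 in Flk1-positive cells. It had 35.2 and 27.2 in Flk1 KO and 484 and 225 in WT embryos. Between Flk1 KO and WT embryos 0 of the 5 passed the limma test. At an unadjusted p below 0.05, 1 was lower, where 3.67% of all genes tested were. Of the RNA quality controls, the transferrin receptor gave log2 values for 3′ minus 5′ probe sets of 1.33 and 1.44 on the cell arrays and of 0.97 to 1.09 on the 4 embryo arrays. Actb gave 0.26 and 0.29 on the cell arrays and 0.47 to 0.58 on the embryo arrays, while Gapdh gave -0.36 and -0.32 on the cell arrays and -0.37 to -0.32 on the embryo arrays. The part of these marker and control shifts in the results below was not tested. A probe set counts as above background on an array where its signal exceeds 95% of those of 80 probe sets for olfactory or vomeronasal receptors, which put the cut-off between 49.1 and 78.3, with the highest on replicate 1 of the Flk1-positive cells.

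The comparison of Flk1-positive cells with WT embryos asks how much of the paraxial mesoderm program they carry. Of the 9 factors, 6 fell (Tbx6, Msgn1, Tcf15, Meox1, Tbx18 and Uncx, each by its brightest probe set) and none rose, where 18.0% of 14959 genes tested were lower (limma, Benjamini-Hochberg adjusted over all probe sets, threshold 0.05). At an unadjusted p below 0.05, 8 were lower and none higher, against 25.8% and 17.6% of all genes tested. The median difference over the 9 genes was -2.05 on the log2(signal + 21.6) scale, against -0.09 over all genes tested. Both cell arrays lay below both WT arrays for all 9 genes, an order that 42.1% of all genes tested showed, and above them for none, where 30.5% of all genes were and 12.5% of all genes were called higher. In bulk samples, fewer cells of a type and less RNA per cell cannot be told apart. The number of factors above background was 3 and 5 of 9 on the cell arrays, 9 and 9 on the Flk1 KO arrays, and 8 and 9 on the WT arrays. Values below are linear signals, differences are on that log2 scale as value ± SE (n = 2 arrays per group), and the scale understates changes of dim genes.

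**Figure D1:**
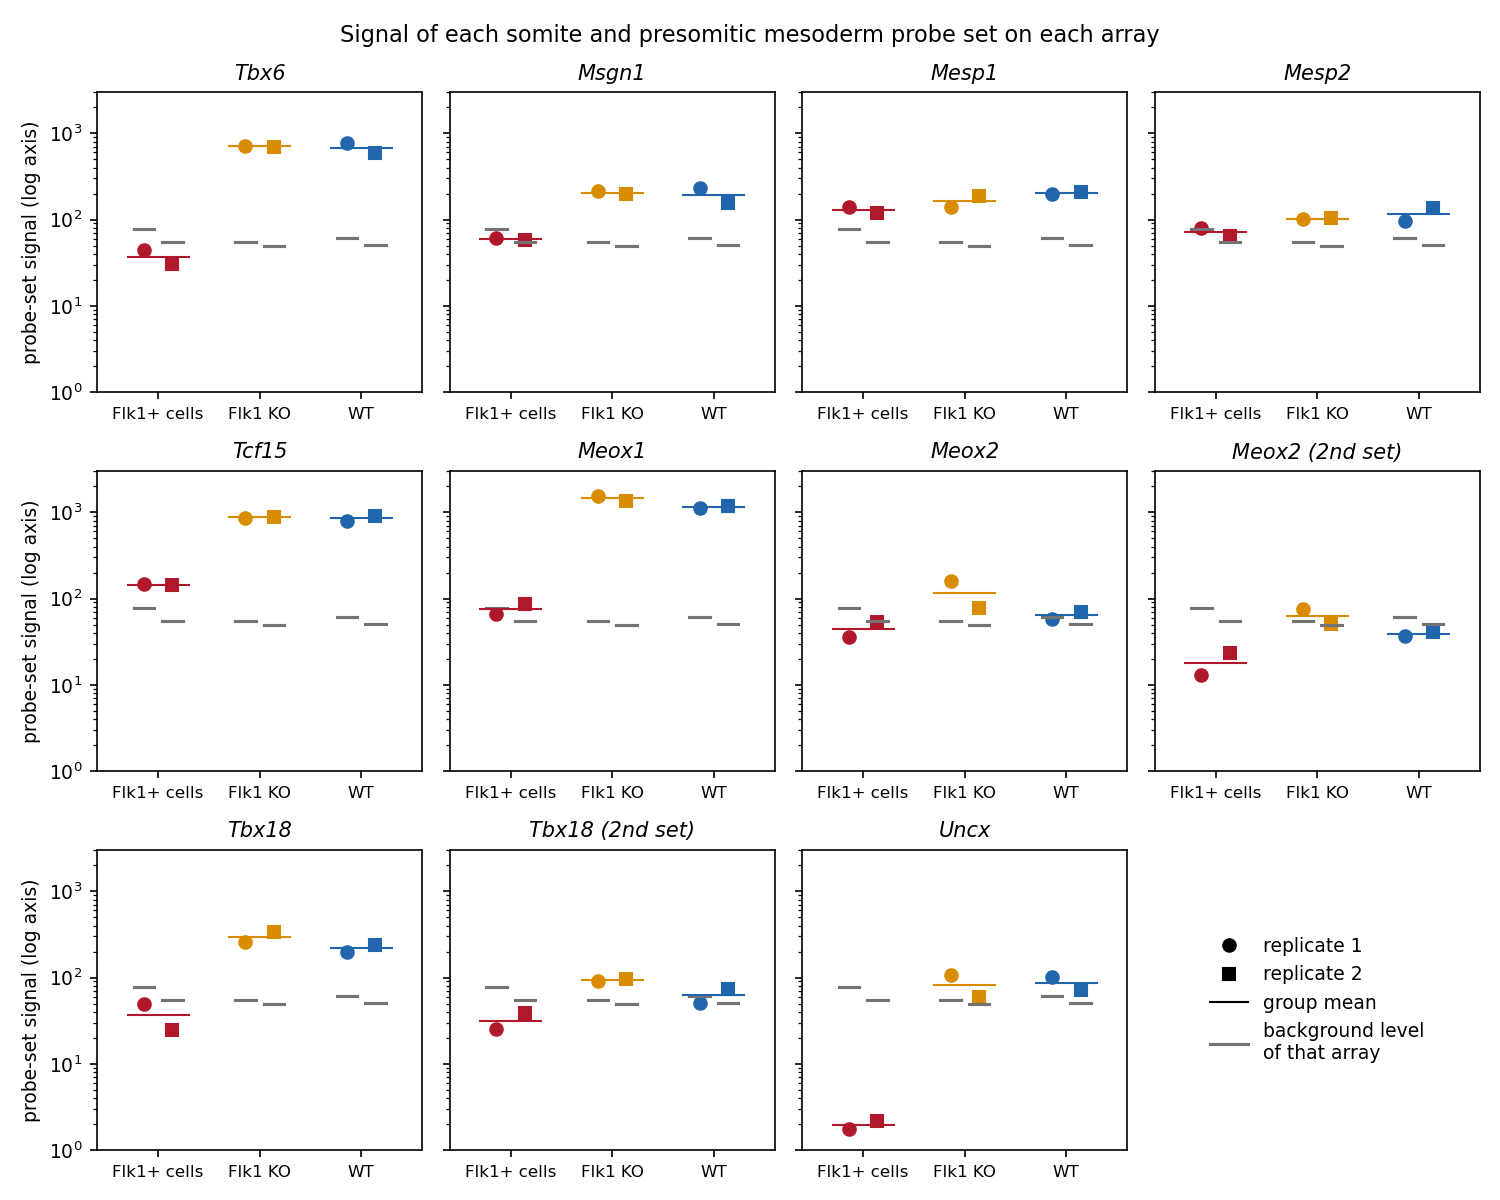
Linear probe-set signal (log axis) of the 11 probe sets on each array, for Flk1-positive cells, Flk1 KO and WT embryos from left to right; circles and squares are replicates 1 and 2, coloured lines the group means and grey lines the background level of each array. Tbx6, Tbx18, Uncx and Meox2 lay below background on both cell arrays, while Mesp1, Mesp2 and Tcf15 lay above it on all 6 arrays, Mesp2 only by a little on the cell arrays.

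Among the presomitic factors, Tbx6, a T-box factor needed for cells to become paraxial mesoderm, had 44.2 and 30.3 in Flk1-positive cells, 718 and 695 in Flk1 KO embryos, and 763 and 586 in WT embryos. The cell arrays were not above background and lay far under the 4 embryo arrays, which overlapped between genotypes. Tbx6 was thus at least 7.92-fold lower in the cells than in WT embryos (fitted difference -3.56 ± 0.19, limma adjusted p = 0.000458). Msgn1, a basic helix-loop-helix factor of the presomitic mesoderm, had 60.9 and 57.3 in Flk1-positive cells, 214 and 196 in Flk1 KO embryos, and 231 and 155 in WT embryos. It fell by 1.39 ± 0.20 in the cells against WT embryos (limma adjusted p = 0.00653), with 1 of 2 cell arrays above background.

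The Mesp pair, also basic helix-loop-helix factors and neighbours on the same chromosome, did not pass the test. Mesp1 had 139 and 119 in Flk1-positive cells, 141 and 188 in Flk1 KO embryos, and 200 and 206 in WT embryos. Its difference from WT embryos was -0.58 ± 0.17 in the cells (95% interval -1.01 to -0.14, limma adjusted p = 0.0625). Both cell arrays lay above background, below both WT arrays, and below both Flk1 KO arrays by a narrow margin. Mesp2 had 80.3 and 64.7 in Flk1-positive cells, 101 and 103 in Flk1 KO embryos, and 96.7 and 136 in WT embryos. The cell signals of Mesp2 were only a little above the background levels of those arrays, 78.3 and 54.4. Its difference from WT embryos was -0.54 ± 0.19 in the cells (95% interval -1.01 to -0.07, limma adjusted p = 0.0904). Mesp1 passed the threshold under 6 of 16 alternative settings (lowest adjusted p = 0.0260, highest 0.228), and Mesp2 under 1 of 16 (lowest adjusted p = 0.0423, highest 0.330).

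Of the somite factors, Meox1, a homeobox gene of the early somite, had 66.8 and 86.0 in Flk1-positive cells, 1547 and 1342 in Flk1 KO embryos, and 1131 and 1170 in WT embryos. It was 3.59 ± 0.16 lower on the log2 scale in the cells than in WT embryos, or 12.0-fold (limma adjusted p = 0.000390), with 1 of 2 cell arrays above background. Tcf15, a helix-loop-helix factor that keeps somites epithelial and that is also known from endothelium of the adult mouse heart, had 146 and 144 in Flk1-positive cells, 861 and 887 in Flk1 KO embryos, and 796 and 911 in WT embryos. It fell by 2.39 ± 0.13 in the cells against WT embryos, or 5.24-fold (limma adjusted p = 0.000465). Among the 6 factors that fell, Tcf15 was the only 1 above background on both cell arrays.

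The markers of both parts of the somite fell. Tbx18, of the anterior part, had 49.6 and 24.8 in Flk1-positive cells, 255 and 337 in Flk1 KO embryos, and 198 and 236 in WT embryos. It was at least 2.73-fold lower in the cells than in WT embryos (fitted difference -2.05 ± 0.26, limma adjusted p = 0.00426). Its dimmer probe set, with 25 and 38.5 in Flk1-positive cells and 50.6 and 74.1 in WT embryos, had a difference of -0.65 ± 0.20 without a call (limma adjusted p = 0.0704). Uncx, of the posterior part, had 1.78 and 2.17 in Flk1-positive cells, 106 and 59.9 in Flk1 KO embryos, and 100 and 72.5 in WT embryos. The cell signals were near the floor of the scale, and the embryo signals stood only a little above background. Uncx was therefore at least 1.23-fold lower in the cells than in WT embryos (fitted difference -2.18 ± 0.25, limma adjusted p = 0.00331).

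Meox2, a homeobox gene of the somite that is also known from vascular cells, had 36.1 and 52.8 in Flk1-positive cells, 157 and 77.2 in Flk1 KO embryos, and 57.6 and 69.8 in WT embryos. Neither cell array was above background, and only 1 of the 2 WT arrays was. The difference of this brighter probe set, whose name marks probes that can match more than 1 transcript, was -0.38 ± 0.31 in the cells against WT embryos (limma adjusted p = 0.426). The dimmer probe set had 12.9 and 23.2 in Flk1-positive cells, 75.2 and 50.3 in Flk1 KO embryos, and 36.8 and 41.4 in WT embryos, below background in both the cells and WT embryos. The difference of this dimmer probe set was -0.63 ± 0.21 in the cells against WT embryos (limma adjusted p = 0.0864). On both probe sets both cell arrays lay below both WT arrays, but neither difference passed the test. No fall of Meox2 was therefore called at this signal.

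**Figure D2:**
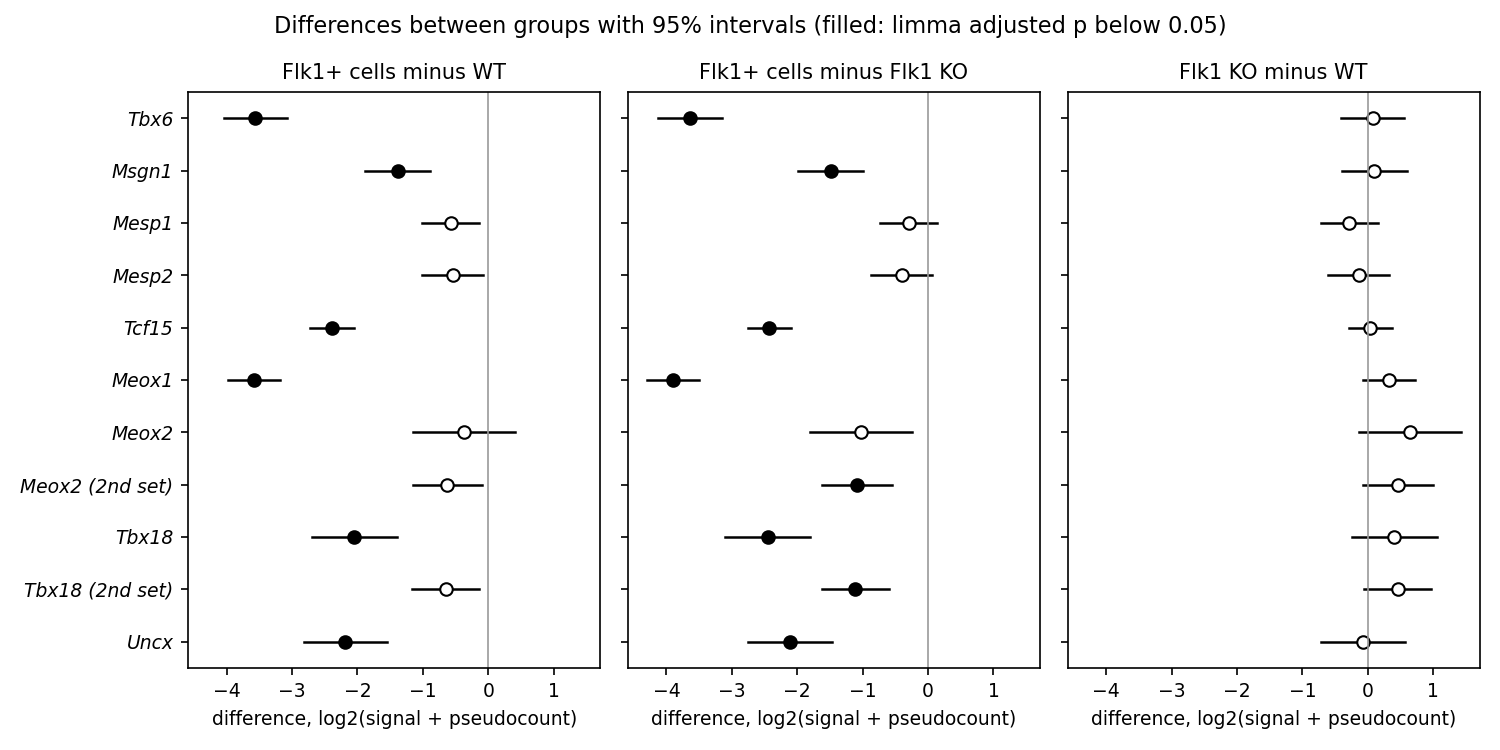
Differences between group means on the log2(signal + 21.6) scale, with 95% limma intervals, for the 11 probe sets; filled points passed an adjusted p of 0.05. Against WT embryos the cells were lower for 6 genes, the same number passed against Flk1 KO embryos by the brightest probe sets, and no point is filled for Flk1 KO against WT embryos.

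The comparison of Flk1 KO with WT embryos asks whether these factors change when the receptor is missing. None of the 9 passed the limma test in either direction, where 0.154% of genes tested were lower and 0% higher. At an unadjusted p below 0.05 none of the 9 was lower or higher, where 3.67% of all genes tested were lower and 2.61% higher, so that 0 of 9 lies near the background share. The median difference was 0.08, against 0.00147 over all genes tested. Tbx6 differed by 0.08 ± 0.19 (95% interval -0.41 to 0.56), Msgn1 by 0.10 ± 0.20 (-0.40 to 0.60) and Tcf15 by 0.04 ± 0.13 (-0.30 to 0.37). For these 3 genes the Flk1 KO and WT arrays overlapped. Uncx differed by -0.07 ± 0.25 (-0.71 to 0.56) and Mesp2 by -0.14 ± 0.19 (-0.61 to 0.33), also with overlapping arrays.

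For the remaining genes the Flk1 KO and WT arrays were apart without a call. Both Flk1 KO arrays lay above both WT arrays for Meox1, Meox2 and Tbx18, 3 of 9 genes, an order found for 19.1% of all genes tested. Meox1 differed by 0.32 ± 0.16 (95% interval -0.08 to 0.72, limma adjusted p = 0.679). Meox2 and Tbx18 showed this order on both of their probe sets, with differences of 0.64 ± 0.31 and 0.46 ± 0.21 for Meox2 (limma adjusted p = 0.673 and 0.660) and of 0.40 ± 0.26 and 0.46 ± 0.20 for Tbx18 (limma adjusted p = 0.765 and 0.643). Mesp1 was the only 1 of the 9 with both Flk1 KO arrays below both WT arrays, an order found for 18.2% of all genes tested (-0.28 ± 0.17, 95% interval -0.71 to 0.15, limma adjusted p = 0.758).

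Set directly against Flk1 KO embryos, which share their arrays with the comparison above, Flk1-positive cells were lower for the same 6 genes by their brightest probe sets, where 19.6% of genes tested were lower. At an unadjusted p below 0.05, 7 were lower and none higher, against 26.6% and 18.3% of all genes tested. Both cell arrays lay below both Flk1 KO arrays for all 9 genes and above them for none, orders that 40.2% and 29.3% of all genes tested showed. Meox1 was 3.91 ± 0.16 lower on the log2 scale in the cells than in Flk1 KO embryos (limma adjusted p = 0.000202). Tbx6 was at least 8.36-fold lower (limma adjusted p = 0.000304) and Tbx18 at least 3.61-fold lower (limma adjusted p = 0.00214). The dimmer probe set of Tbx18 passed as well, at least 1.31-fold lower (limma adjusted p = 0.0130). That of Meox2 also passed (limma adjusted p = 0.0159), but both cell arrays were below background and the bound on its fold was under 1, so no size is given. The brighter probe set of Meox2 did not pass (limma adjusted p = 0.0609). Mesp1 differed by -0.30 ± 0.17 and Mesp2 by -0.40 ± 0.19, without a call (limma adjusted p = 0.256 and 0.169).

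The 9 profiles were set against each other, and all but that of Meox2 also against other genes. Meox2 was left out there because only 1 of its WT arrays was above background. The likeness of 2 profiles was measured as the root mean square distance between their mean-centred log2 values over the 6 arrays. Mesp1 and Mesp2 lay closest (0.158), followed by Meox1 and Tbx6 (0.253) and by Tcf15 and Tbx18 (0.261), and Meox1 and Mesp1 lay farthest apart (1.59). Profiles with small differences are close to each other by this measure whatever their order. Among 13949 other named genes, those nearest to Meox1 were Mapk13 (0.130), Sox3 (0.147), a neural plate gene, and Pknox2 (0.148), and those nearest to Tbx6 were Trh (0.0673), Met (0.101) and Rgma (0.112). Nearest to Tcf15 were Mapk8ip1 (0.0560), Id4 (0.0631) and Tenm4 (0.0637), and nearest to Msgn1 were Cldn23 (0.0830), Cecr2 (0.101) and Foxred2 (0.103). For Tbx18 they were Bmp5 (0.147), Wdr86 (0.154) and Slco5a1 (0.167), and for Uncx Rhpn1 (0.0830), Camta1 (0.116) and Dcn (0.119). Mesp1 was nearest to Zfp160 (0.0485), Ajap1 (0.0552) and Hecw1 (0.0553), and Mesp2 to Jph1 (0.0588), the probe set annotated to Mir1949 (0.0648) and Zc3h12d (0.0660). Cldn23 and Zc3h12d were above background on none of the 6 arrays, so their distances rest on signals with no measured order, and 11 of the 24 genes were above background on all 6. None of these 24 genes was another of the 9 factors, and neural Sox3 lay nearer to Meox1 than Tbx6 did.

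**Figure D3:**
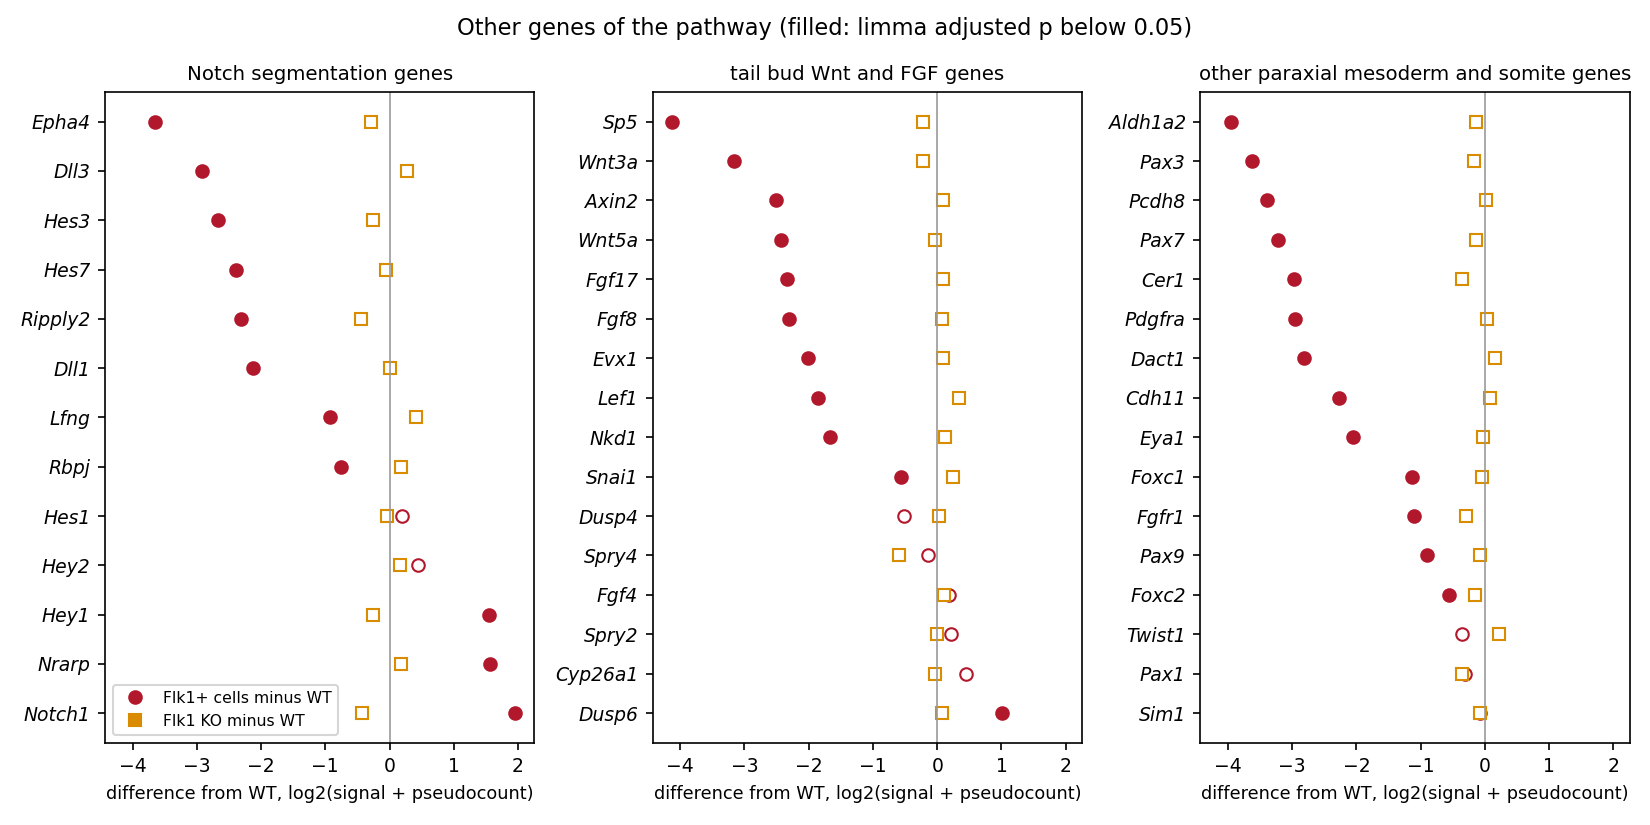
Differences from WT embryos on the log2(signal + 21.6) scale for the other genes of the pathway, with Flk1-positive cells as circles and Flk1 KO embryos as squares; filled points passed an adjusted p of 0.05. In the cells most genes lie left of 0 and 4 genes (Hey1, Nrarp, Notch1 and Dusp6) passed to the right, while no Flk1 KO point is filled.

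The genes that drive segmentation through Notch split in Flk1-positive cells. Of 15 listed, 13 were measured, and against WT embryos 8 fell and 3 rose, with a median of -0.93, where 18.0% of all genes tested were lower and 12.5% higher, with a median of -0.09. The guidance receptor Epha4, active at the forming somite border, had 89.3 and 72.4 in Flk1-positive cells and 1188 and 1342 in WT embryos (-3.65 ± 0.22, limma adjusted p = 0.000549). The Notch ligand Dll3 fell by 2.92 ± 0.18 and the repressor Hes3 was at least 3.01-fold lower, though Hes3 lost its call without WT replicate 1 (adjusted p = 0.0534). The 3 genes that rose were the receptor Notch1 and the Notch targets Nrarp and Hey1. Notch1 had 2839 and 2960 in Flk1-positive cells and 758 and 710 in WT embryos (1.95 ± 0.13), while Nrarp was 1.57 ± 0.14 and Hey1 1.55 ± 0.17 higher. Of other Notch targets, Hes7 fell by 2.40, while Hes1 and Hey2 did not pass (limma adjusted p = 0.608 and 0.170). In Flk1 KO embryos none of the 13 passed the limma test and 1 was lower at an unadjusted p below 0.05 (3.67% of all genes tested), with a median of -0.05. Ripply2 differed there by -0.44 ± 0.32 and Notch1 by -0.42 ± 0.13.

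Wnt and FGF genes of the tail end were mostly lower in the cells. Of 18 listed, 16 were measured, and 10 fell and 1 rose against WT embryos, with a median of -1.77, beside the same 18.0% lower and 12.5% higher over all genes tested. The Wnt target Sp5 had 82.2 and 8.11 in Flk1-positive cells, which differed from each other by far more than the 936 and 961 of WT embryos did (-4.13 ± 0.56, limma adjusted p = 0.00540). Wnt3a, the ligand that maintains the tail bud, had 19.9 and 16.3 in Flk1-positive cells and 377 and 298 in WT embryos, and was at least 4.10-fold lower. Axin2, a feedback inhibitor of Wnt signals, fell by 2.51 ± 0.19. Dusp6, a feedback phosphatase of the FGF pathway, was the 1 that rose (1.003 ± 0.13, limma adjusted p = 0.0042). In Flk1 KO embryos none of the 16 passed the limma test and 1 was lower at an unadjusted p below 0.05 (3.67% of all genes tested), with a median of 0.08. The FGF antagonist Spry4 differed there by -0.60 ± 0.22 and Lef1, which carries Wnt signals in the nucleus, by 0.34 ± 0.20.

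Other genes of the paraxial mesoderm were mostly lower in the cells as well. Of 20 listed, 18 had a probe set, 16 passed the filter on dim probe sets, and 13 of these fell and none rose in Flk1-positive cells against WT embryos, with a median of -2.16, again beside 18.0% lower and 12.5% higher over all genes tested. Aldh1a2, the enzyme that makes retinoic acid in somites, had 209 and 162 in Flk1-positive cells and 3202 and 3091 in WT embryos (-3.94 ± 0.18, limma adjusted p = 0.000390). Pax3, a paired-box factor of the dorsal somite and of the neural tube, was at least 5.94-fold lower, and Pcdh8, the paraxial protocadherin, at least 7.04-fold. In Flk1 KO embryos none of the 16 passed the limma test, and none did at an unadjusted p below 0.05 (3.67% of all genes tested lower and 2.61% higher), with a median of -0.07. The widest fitted differences there, with overlapping arrays, were those of Cer1 (-0.36 ± 0.34), an antagonist of Nodal, and of Pax1, which was above background on 0 of the 6 arrays, so that its difference is not given. Single calls in the 3 lists depended on single arrays or on the processing. Those of Lfng, Rbpj, Snai1, Foxc2, Pax9 and Fgfr1 in the cells were lost when 1 array or another was left out. With all arrays kept, Snai1 also lost its call with quantile normalization, Foxc2 with median centring, and Pax9 and Fgfr1 with a replicate block. The probe set used mattered too. With a gene's median probe set value, Fgf4 moved from 0.19 to -1.11 and Sim1 from -0.07 to -1.24 in the cells against WT embryos. Both then passed as lower (limma adjusted p = 0.0150 and 0.00213), and Cyp26a1 passed as higher (limma adjusted p = 0.0359).

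Markers of other tissues of the embryo moved with these genes. Against WT embryos, all 6 neural plate markers, all 5 gut endoderm markers, all 3 measured intermediate mesoderm markers and 6 of 8 cardiac and lateral plate markers fell in Flk1-positive cells, with medians of -4.01, -3.90, -3.32 and -1.18. Of all genes tested, 18.0% were lower there, with a median of -0.09. In Flk1 KO embryos none of these 22 markers passed the limma test, and their medians were -0.11, -0.12, 0.15 and 0.26. There 3 of the 8 endothelial markers fell (median -1.69), where 0.154% of all genes tested were lower. These 3 calls were lost on leaving out any 1 array. All 8 endothelial markers were lower in Flk1 KO embryos at an unadjusted p below 0.05, with both Flk1 KO arrays below both WT arrays, an order that 18.2% of all genes tested showed. A fall in Flk1-positive cells was thus measured for genes of several tissues, and was not tested as particular to the paraxial mesoderm.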

How the data were processed

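Per the labels' protocols, biotin-labelled target from total RNA (RNeasy Micro kit) was read on Affymetrix GeneChips. The values deposited by the authors were a linear intensity, 1 signal for each of 45101 probe sets on 6 arrays. Their 2% trimmed mean was 500.0 on every array and the lowest value 1, so they had been scaled and given a floor before deposit; which program did so is not stated in these sources. No detection calls were used.

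The platform annotation named the probe sets (34958 with 1 symbol, 932 with several, 9211 with none); gene IDs matched to RefSeq changed 0 symbols. For each gene the probe set of the highest mean signal stood for it. Signals were transformed as log2(signal + 21.6), with a pseudocount at the 25th percentile of all signals. No further normalization was applied, since array medians lay within 0.100 (log2). After leaving out 64 control probe sets and those with a mean log2 value below that of the 25th percentile, 33820 probe sets remained. They were kept whether they had 1 symbol, several or none, and included the brightest probe sets of 14959 genes. All 33820 were tested in limma 3.58.1 under R 4.3.3 by lmFit and eBayes. Group was the only term, with all 6 arrays in 1 two-sided fit (degrees of freedom: 3 residual, 2.49 prior). P-values were adjusted over all 33820 probe sets by Benjamini-Hochberg. Where no array of the dimmer group was above its background level, the fold is given as at least the distance between the brighter mean and, on each dim array, the higher of its background and its own value, on the same log2 scale. The procedure was tested on simulated data. Python 3.11.15 with matplotlib 3.10.9 drew the figures.

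The 9 genes, the lists and the tests were chosen with earlier results of these data known. Named genes were Kdr, the 9 factors, up to 3 called falls and rises of each pathway list (or the 2 widest differences where none passed), and the 3 nearest genes of each factor whose WT arrays were above background. Genes named as losing or gaining a call, and Hes7, Hes1 and Hey2, were added after their values were seen. Genes of a list without a probe set of that single symbol were not analysed here. With 2 arrays a group, precision is limited by their number. The alternatives tried were the pseudocount, the filter, median centring, quantile normalization, a robust prior with an intensity trend, a fit on only 2 groups, a replicate block, a gene's median probe set value and leaving out each array.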

Additional observations from a re-analysis of the deposited data

How the results depend on the processing

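The calls of Tbx6, Msgn1, Tcf15, Meox1, Tbx18 and Uncx as lower in Flk1-positive cells, against WT and against Flk1 KO embryos, held under every alternative that tested them. Uncx and the brighter Meox2 probe set were not tested with the filter at the 50th percentile. Across the alternatives 6 to 7 of the 9 factors were lower against WT embryos and 5 to 7 against Flk1 KO embryos, with 0 higher, and 0 passed for Flk1 KO against WT embryos. Of the pathway genes 31 were lower and 4 higher in the cells, and 25 to 33 lower and 4 to 5 higher across the alternatives. On leaving out single arrays these were 25 to 30 lower and 4 higher, with a lone array assumed to vary like the other groups. Fitted sizes of dim genes moved with the pseudocount, that of Uncx between -3.62 and -1.01.

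Small differences between Flk1 KO and WT embryos, none of them called, changed sign. Uncx was 0.0417 with quantile normalization and 0.0295 with median centring, and on leaving out single arrays it ranged from -0.394 (without Flk1 KO replicate 1) to 0.249 (without Flk1 KO replicate 2). Without 1 WT array or the other, Tcf15 ranged from -0.0593 to 0.132, Tbx6 from -0.108 to 0.261, Mesp2 from -0.348 to 0.0655 and Msgn1 from -0.158 to 0.356. The cause was not tested.

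No shift shared by replicate number was seen: the differences between replicates 1 and 2 correlated at 0.00793 to 0.0286 between groups. Whether arrays of the same number were handled together cannot be told from these values. With a replicate block, 6 of the 9 factors were lower in the cells against WT and 6 against Flk1 KO embryos, 0 passed for Flk1 KO against WT embryos, and 28 pathway genes were lower and 4 higher. Over all probe sets, 27 were lower in Flk1 KO embryos, against 0 to 121 lower and 0 to 13 higher under the alternatives, with 0 on leaving out any 1 array. In the cells against WT embryos 4876 were lower and 3923 higher, against 2220 to 6273 and 2127 to 4838 under the alternatives on probe sets. Signals near background limit Meox2, Mesp2, Uncx and the dimmer Tbx18 probe set.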
